A study of Mus musculus with 27 samples.

Results

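The regions described here are the stretches of open chromatin that stayed open after loss of Runx1 and that carried a Runx1 ChIP-seq peak in control cells. Of the 37481 Runx1-independent ATAC-seq peaks of mouse mK4 cells, 3843 (10.3%) overlapped a Runx1 peak by at least 1 bp, out of 55649 open regions in the 3 ATAC-seq lists together. The cells were mK4, a line derived from mouse metanephric mesenchyme, the embryonic tissue from which nephrons arise. Control mK4 cells were set beside Runx1KO cells, in which CRISPR had removed exon 3 of Runx1 and from which clones were picked, and, for RNA only, beside ZebDKO cells lacking Zeb1 and Zeb2. RNA-seq had 3 libraries for each of the 3 genotypes, while ATAC-seq and ChIP-seq also had 3 samples a group but were deposited as peak lists without values per replicate. No treatment, time course or donor entered the comparisons used here, and the sources used here do not say how many clones each knockout stands for, so clone and genotype cannot be told apart. Because the peaks are pooled, shares of regions are given with Wilson 95% intervals that cover the counting of regions only, and no test was made on them.

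Runx proteins bind DNA through the Runt domain at a short core sequence, usually together with Cbfb, the non-DNA-binding partner that strengthens their hold on DNA. Runx1 is best known as a regulator of blood formation and Runx2 as the main factor of bone formation, and both can activate or repress genes according to the cofactors they recruit. The family shares its core sequence, so a site open to one member can in principle be read by another.

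The sequences below are those of strongly bound regions, chosen to show how differently a Runx1 summit can look when the chromatin around it stays open. Each is the plus strand of mm9 from 50 bases before to 50 bases after the Runx1 summit, read 5′ to 3′, and was taken from windows outside annotated exons in order of the fold enrichment of Runx1 over local background. Capitals mark the Runx core TGTGGT on either strand (ACCACA when read from the other one) and the AP-1 core TGACTCA or TGAGTCA.

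The next 3 have a Runx core close to the summit. They come from introns of Fam71f1, Vmp1 and Sik3, with Runx1 fold enrichments of 13.6, 12.8 and 12.6.

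chr6:29276969-29277069: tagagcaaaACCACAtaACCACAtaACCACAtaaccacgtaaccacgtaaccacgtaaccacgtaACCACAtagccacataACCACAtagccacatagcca
chr11:86437891-86437991: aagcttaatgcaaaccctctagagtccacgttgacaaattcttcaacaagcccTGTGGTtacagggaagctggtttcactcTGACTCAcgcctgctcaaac
chr9:45928254-45928354: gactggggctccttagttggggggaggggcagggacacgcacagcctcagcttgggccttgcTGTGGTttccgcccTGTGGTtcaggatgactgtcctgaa

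The Fam71f1 intron held the core 5 times in the stretch shown and 7 times within 100 bases of the summit, in a tandem array of a short unit, whereas the Vmp1 intron held it once with an AP-1 core further along. A pair of further regions carried both cores close to the summit, the one in an intron of Fam180a with a Runx1 fold of 11.45 and the other between genes on chromosome 4 with a fold of 11.0.

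chr6:35273189-35273289: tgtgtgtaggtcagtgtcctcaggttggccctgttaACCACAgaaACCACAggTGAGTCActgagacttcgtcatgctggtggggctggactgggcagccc
chr4:32266878-32266978: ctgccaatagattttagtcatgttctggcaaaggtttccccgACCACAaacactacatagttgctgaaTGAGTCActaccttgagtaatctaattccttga

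Strong Runx1 peaks also lay where these letters were absent. The following pair held neither TGTGGT nor the related TGCGGT, one between genes on chromosome 17 (fold 11.7) and one beside the transcription start of Gabpb1, which encodes a subunit of an Ets family complex (fold 11.6).

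chr17:50559434-50559534: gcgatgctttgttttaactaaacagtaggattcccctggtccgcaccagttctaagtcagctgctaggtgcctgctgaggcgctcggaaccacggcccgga
chr2:126501360-126501460: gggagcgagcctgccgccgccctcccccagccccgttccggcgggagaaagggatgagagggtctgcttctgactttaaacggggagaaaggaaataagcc

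The last pair had the core and a Runx2 peak in control but none in Runx1KO cells. Their Runx1 folds were 8.66 and 8.08, and both lay between genes.

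chr2:131595549-131595649: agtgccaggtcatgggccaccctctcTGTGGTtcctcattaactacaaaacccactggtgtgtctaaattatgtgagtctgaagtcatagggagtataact
chr17:48583818-48583918: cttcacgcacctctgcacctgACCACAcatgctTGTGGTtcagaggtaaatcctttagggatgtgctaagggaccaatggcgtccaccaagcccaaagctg

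Depth could not be read from TPM or from peak lists. Between 12541 and 12697 genes reached 1 TPM in each of the 9 RNA libraries, and libraries of one genotype correlated across genes at r = 0.994 to 0.996 on log2(TPM+1), where genes are not independent replicates. The marker genes fixed for the tissue were mixed: Pax2, Hoxa11, Osr1 and Sall1 stood between 49.5 and 315.7 TPM across control libraries, while Six2, Cited1, Wt1 and Hoxd11 were at 0 to 0.4 TPM. Of the epithelial markers, Krt8 moved from 1.8 to 3.6 TPM in control to between 2302 and 2394 TPM in Runx1KO libraries, and Epcam was listed at 0 in both. Loss of 1 exon need not lower the TPM of a whole gene, so Runx1 at a mean of 17.4 ± 1.61 TPM in control libraries and 29.6 ± 0.987 TPM in those of Runx1KO (SD, n = 3) does not check the labels.

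Most Runx1-bound regions that stayed open were promoters. Of the 3843, 2284 (59.4%, 57.9 to 61.0%) overlapped the 1000 bases on either side of an annotated transcription start, 861 (22.4%) lay between genes, 655 (17.0%) in introns and 43 (1.12%) in exons. Closing regions bound by Runx1, those of the 8741 Runx1-dependent peaks with a Runx1 peak, were placed otherwise: only 96 of 1028 (9.34%, 7.71 to 11.3%) were at a start. Stable regions with a Runx2 peak in either cell line and no Runx1 peak resembled the Runx1-bound ones in place, with 63.4% at a start, whereas 20.8% of the 26922 stable regions with no Runx peak were.

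The width and CpG content of the Runx1-bound stable regions were close to those of stable regions with Runx2 only. Their median width was 997 bases (interquartile range 738 to 1299.5), against 971.5 bases with Runx2 only, 724.5 bases for the closing Runx1-bound regions and 522 bases for stable regions without a Runx peak. A wide region meets the rule of 1 bp overlap with a peak more easily than a narrow one. The part of that rule in these widths was not tested. At starts the median GC content was 61.2% and the ratio of observed to expected CpG 0.754, and elsewhere 50.8% and 0.249. A CpG ratio of at least 0.6, a usual mark of CpG islands, was met by 80.8% (79.2 to 82.4%) of the regions at starts and by 6.99% of those elsewhere. The shares with Runx2 only were 81.5% (80.3 to 82.7%) and 7.36%, and with no Runx peak 48.9% and 2.17%.

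Width and place both went with the share of regions overlapping a Runx1 peak. The overlap rule itself favours wide regions, and its part in the rise with width was not tested. Among stable regions of 215 to 403 bases a Runx1 peak was found at 3.13% of those at starts and 1.97% of those elsewhere, and among those in the widest class, from 948 bases, at 24.3% (23.2 to 25.3%) and 18.4% (17.0 to 19.9%). The share at starts lay above that elsewhere in every width class, and the intervals parted in all but the narrowest. Nuclear chromosomes ranged from 13.6% of stable regions bound on chromosome 19 to 7.40% on chromosome 14. The median gap between neighbouring members was 165 kb, and 244 of 3823 gaps were under 10 kb.

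**Figure D1:**
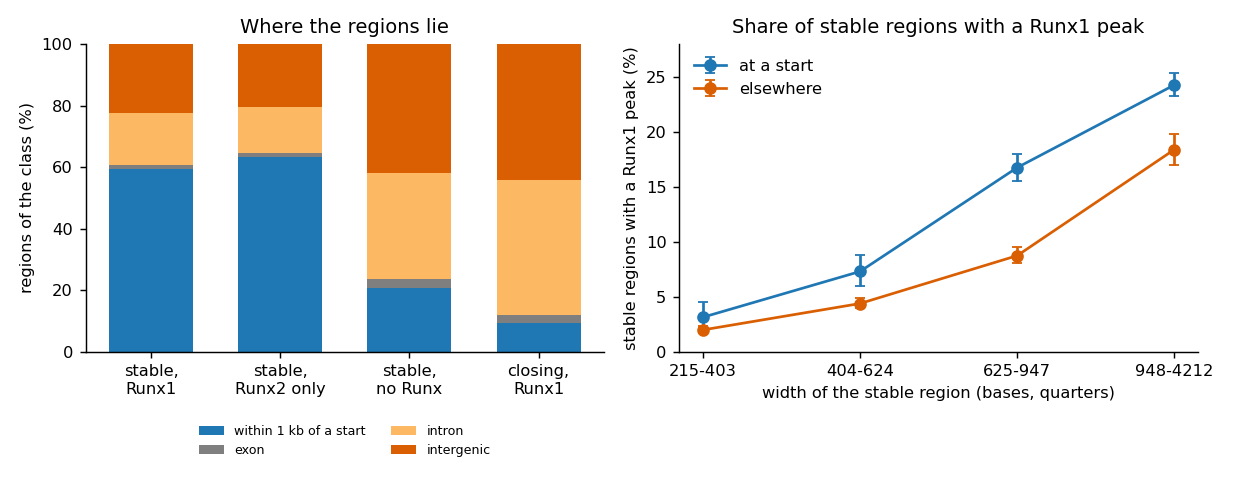
Left, the share of regions (%) of 4 classes that lie within 1 kb of a transcription start, in exons, in introns or between genes. Right, the share of stable regions (%) with a Runx1 peak in 4 width classes of like size (bases), at starts and elsewhere, with Wilson 95% intervals as bars; both lines climb, to 24.3% and 18.4% in the widest class.

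The core TGTGGT was present at a minority of the summits, and its share depended on place. With the related TGCGGT counted as well, as given below, a match was present at the majority (65.03%). That share was 58.5% at starts and 74.5% elsewhere. TGTGGT on either strand occurred within 100 bases on either side of the Runx1 summit in 1528 of 3843 regions (39.8%, 38.2 to 41.3%). At starts it occurred in 617 of 2284 (27.0%, 25.2 to 28.9%) and elsewhere in 911 of 1559 (58.4%, 56.0 to 60.9%). In windows of the same length at the middle of all 55649 open regions it occurred in 8.96% of those at starts and 18.8% of those elsewhere. In both kinds of place the core was thus more frequent around Runx1 summits than in the middle of open regions at large, although the windows sit on different points of a region. With the window at the region middle in both the contrast was smaller. The core then occurred at 11.9% of the stable Runx1-bound starts, against 8.96%, and at 35.0% of those elsewhere, against 18.8%.

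Compared with closing regions, the stable regions held TGTGGT less often in either kind of place. The gap was smaller with TGCGGT counted as well, as given below. Away from starts the closing Runx1-bound regions held it in 71.9% (68.9 to 74.7%), against 58.4% of the stable ones. At starts the closing ones held it in 60 of 96 (62.5%, 52.5 to 71.5%), against 27.0%. More than 1 core in the window was found in 22.5% of closing and 11.9% (10.4 to 13.6%) of stable regions away from starts, and in 3.37% of stable regions at starts.

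A related core, TGCGGT, was more frequent at the stable starts than at the stable regions elsewhere. It occurred at 813 stable starts (35.6%, 33.7 to 37.6%) and at 351 stable regions elsewhere (22.5%, 20.5 to 24.7%), against 16.4% (14.2 to 18.9%) of closing regions elsewhere. At the closing starts it occurred in 27 of 96 (28.1%, 20.1 to 37.8%), an interval that overlaps that of the stable starts. It contains a CpG, so its number can move with the CpG content given above. The part of CpG content in it was not tested. Around the summits of stable starts it stood at 53.4 matches per 1000 regions in the central 20 bases. In the bin centred 200 bases along the plus strand it stood at 7.01. In windows at the region middle it occurred at 14.7% of stable Runx1-bound starts, 7.94% with Runx2 only and 6.93% of all open starts. Elsewhere these shares were 12.1%, 6.91% and 3.09%. With either core counted, 65.03% of the stable regions had a match and 1344 (35.0%, 33.5 to 36.5%) had neither, of which 947 were at starts. At starts a match to either was present in 58.5% (56.5 to 60.5%) of the stable and 83.3% (74.6 to 89.5%) of the closing Runx1-bound regions. Elsewhere these shares were 74.5% (72.3 to 76.6%) and 83.3% (80.7 to 85.5%).

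Cores of other factors were counted in the same windows. AP-1 (TGACTCA or TGAGTCA), bound by Fos and Jun proteins, occurred at 27.7% (25.5 to 29.98%) of the stable regions away from starts and at 4.33% of those at starts. The closing Runx1-bound regions away from starts had it in 25.4% (22.7 to 28.3%), an interval that overlaps the stable one. Both cores together were found in 17.0% of stable regions elsewhere and in 1.88% at starts. The Ets core CCGGAA occurred at 21.7% of stable starts and 5.45% elsewhere, and the Sp/Klf core GGGCGG at 51.1% and 11.4%. In the middle of all open regions AP-1 stood at 6.75% at starts and 26.2% elsewhere, Ets at 14.5% and 3.75%, and Sp/Klf at 43.6% and 7.52%. With the window at the region middle in both, AP-1 occurred at 21.2% (19.3 to 23.3%) of the stable Runx1-bound regions away from starts and at 26.2% (25.8 to 26.6%) of all open regions there. With Runx2 only it occurred at 19.6% of stable regions away from starts. In that window Ets occurred at 17.95% and Sp/Klf at 54.5% of the stable Runx1-bound starts. Stable starts with Runx2 only had 17.5% and 56.0%.

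**Figure D2:**
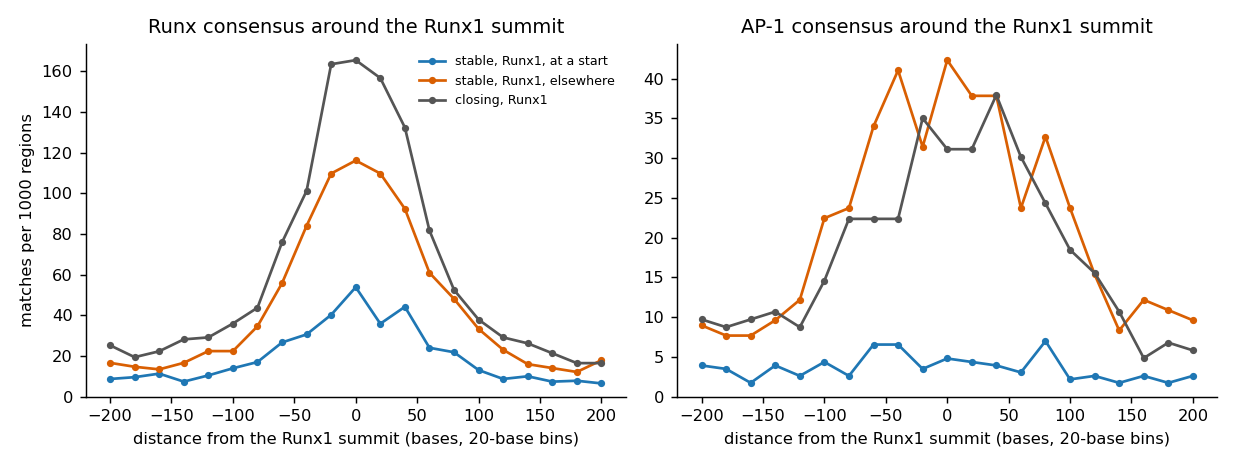
Matches per 1000 regions in 20-base bins, by distance in bases from the Runx1 summit, for the Runx core (left) and the AP-1 core (right) in stable Runx1-bound regions at starts, those elsewhere, and closing Runx1-bound regions. In the central bin the Runx core stood at 53.9, 116.1 and 165.4 per 1000, and AP-1 at 4.82, 42.3 and 31.1.

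The core was concentrated at the summit itself. In the central 20 bases there were 53.9 matches per 1000 regions at starts, 116.1 in stable regions elsewhere and 165.4 in closing regions, and in the bin centred 200 bases along the plus strand 6.57, 17.96 and 16.5. AP-1 in stable regions elsewhere went from 42.3 per 1000 in the centre to 9.62 at that distance. At starts AP-1 showed no such peak, with 1.75 to 7.01 matches per 1000 in every bin.

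Runx1 fold enrichment over the stable regions ran from 2.01 to 13.8 with a median of 4.80 (interquartile range 4.09 to 5.91). Those at starts had a median of 4.67, those elsewhere 4.96, and the closing Runx1-bound regions 5.15. Cut into 4 groups of like size by Runx1 fold, regions of higher fold held the Runx core more often. Away from starts the core share stood at 48.7% (43.8 to 53.7%) among the lowest folds and 64.8% (59.9 to 69.4%) among the highest, and at starts at 22.2% (19.0 to 25.8%) and 32.7% (29.0 to 36.7%). Even in the group of highest fold most starts thus lacked TGTGGT within 100 bases of the summit.

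Runx2 occupied nearly all of these regions with and without Runx1. A Runx2 peak was present at 3689 (96.0%) in control and at 3587 (93.3%, 92.5 to 94.1%) in Runx1KO cells. Over all 55649 open regions these shares were 19.7% and 20.02%. The closing Runx1-bound regions had 95.8% (94.4 to 96.9%) in control and 83.5% (81.1 to 85.6%) in Runx1KO cells. The share in control was thus not particular to the stable regions. By state, 3517 of the stable Runx1-bound regions had Runx2 in both lines, 172 in control only, 70 in Runx1KO only and 84 in neither. At starts, 2197 of the 2234 regions with Runx2 in control had it in Runx1KO as well (98.3%, 97.7 to 98.8%). Elsewhere 1320 of 1455 did (90.7%, 89.1 to 92.1%), and of the closing Runx1-bound regions elsewhere 758 of 892 (85.0%, 82.5 to 87.2%).

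The regions without Runx2 in Runx1KO cells were weakly bound by Runx1 and lay mostly away from starts. Of the 172 with Runx2 in control only, 21.5% were at a start, the median Runx1 fold was 4.34 against 4.96 for regions with Runx2 in both lines, and the median Runx2 fold in control was 4.15 against 5.79. The Runx core was found at 48.3% (40.9 to 55.7%) of the 172 and at 39.9% (38.3 to 41.5%) of the regions with Runx2 in both lines. Within each kind of place the intervals overlapped, with 9 of 37 (24.3%, 13.4 to 40.1%) against 27.4% at starts and 74 of 135 (54.8%, 46.4 to 62.96%) against 60.8% (58.1 to 63.4%) elsewhere. Weak peaks lie near the calling limit, so their absence from a list can be a matter of threshold, and its part in these counts was not tested.

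Runx2 peaks were more frequent where Runx1 was stronger, in both lines. Away from starts a Runx2 peak was present in Runx1KO cells at 75.6% (71.1 to 79.6%) of the regions of lowest Runx1 fold and at 82.8%, 92.8% and 97.2% (95.01 to 98.4%) of the 3 following groups, while control cells had 85.1%, 91.8%, 96.9% and 99.5%. At starts the same groups in Runx1KO gave 94.2%, 97.4%, 98.9% and 99.8%.

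**Figure D3:**
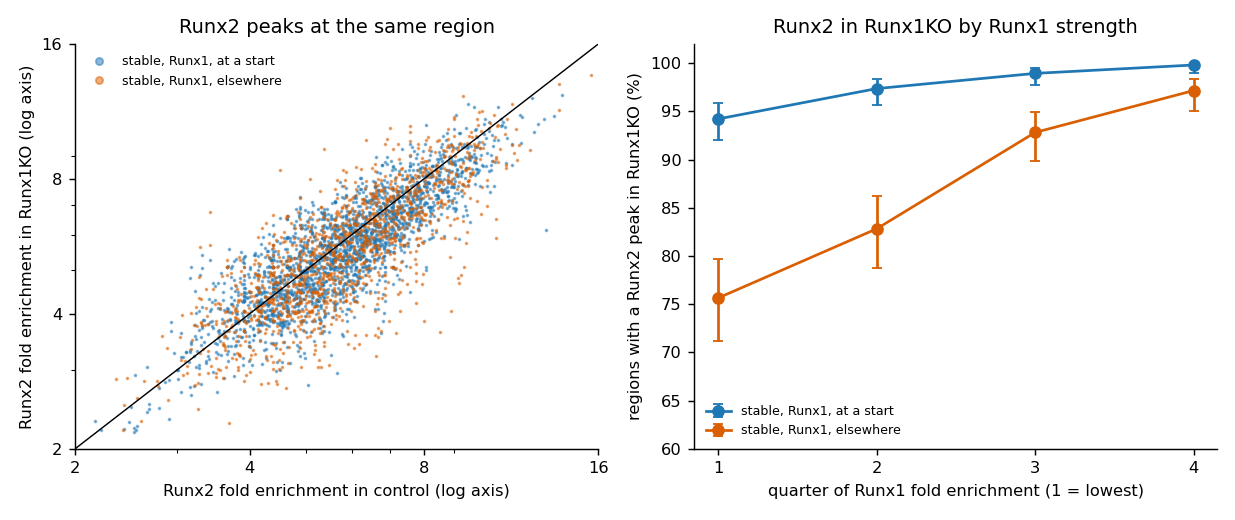
Left, Runx2 fold enrichment in Runx1KO against control (log axes) for the 3517 stable Runx1-bound regions with a Runx2 peak in both, with the line of equality; most points lie near it, with a median ratio of 0.957. Right, the share of regions (%) with a Runx2 peak in Runx1KO by Runx1 fold in 4 groups, with Wilson 95% intervals, from 75.6% to 97.2% away from starts and from 94.2% to 99.8% at starts; the axis begins at 60%.

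Where Runx2 was present in both lines its enrichment was of similar size. A ratio exists only for regions with a called Runx2 peak in both lines. Regions whose Runx2 lay under the calling limit in either line are left out, which narrows the range of the ratios. The ratio of the Runx2 fold in Runx1KO to that in control had a median of 0.957 over the 3517 regions and lay between 0.720 and 1.27 for the middle 90% of them. The ratio was 0.903 over 841 closing Runx1-bound regions and 0.988 over 3808 stable regions with Runx2 only. No replicate values exist for these folds, and the peak lists of both lines were called separately, so a ratio near 1 holds the scaling of both libraries as well.

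A large fall from a low fold takes a region off the Runx1KO list, so few ratios under 0.5 can be seen. Among the 3517 regions with a peak in both lines, 5 had less than 0.5 of their control Runx2 fold in Runx1KO cells. They were named after their values were seen. The strongest was at the start of Notch1, a receptor of the Notch pathway (chr2:26358806-26359476), where Runx2 fell from a fold of 13.0 to 6.17. That region also had the highest Runx1 fold of all 3843, 13.8, and had no TGTGGT or TGCGGT within 100 bases of its summit. The others lay in an intron of Tada2a, 31870 bases from the start of Trib1, and between genes on chromosomes 8 and 17, with ratios of 0.428 to 0.489. None of the 3517 had more than 2 times its control fold.

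Summits of both factors lay close together. The nearest Runx2 summit of control cells was a median of 45 bases from the Runx1 summit, within 50 bases at 1997 of 3689 regions (54.1%, 52.5 to 55.7%), and in Runx1KO cells the median was 47 bases. Away from starts the median was 38 bases in control and at starts 51 bases. All open regions with a Runx1 peak had medians of 44 bases in control and 46 in Runx1KO cells. The closing Runx1-bound ones had 41 and 43 bases, and those away from starts 40 bases in control. The closeness was thus not particular to the stable regions.

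The 10 regions with the highest Runx1 fold were assigned to the nearest tested gene, and 1 of these genes was called in Runx1KO cells. Over all tested genes with an annotated start 7.91% were called higher and 5.26% lower. A count of 1 in 10 is near that background, and nothing particular to strong Runx1 binding is read from it. Clic5, encoding an intracellular chloride channel family protein associated with the cytoskeleton, had the region in an intron 68166 bases from its start (fold 12.4) and went from 2.70 ± 0.10 to 35.5 ± 1.11 TPM (SD, n = 3), a log2 fold change of 3.30 with an adjusted p of 1.04e-08 (limma, Benjamini-Hochberg). Notch1 went from 32.9 ± 3.08 to 16.6 ± 0.971 TPM, a log2 fold change of -0.95 that did not pass 2-fold. Dtnbp1 had -0.84, Gm7334, 278373 bases away, 0.64, and the other 6 (Calu, Vmp1, Sik3, Stard13, Erich1, Arhgef10l) lay between -0.46 and 0.10.

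Genes whose start carried such a region were mostly well expressed and moved little. In the TPM table, 2320 genes had a Runx1-bound stable region within 1000 bases of a start, and 95.6% of them reached a mean of 1 TPM in control, against 52.8% of all 20435 genes with an annotated start. With Runx2 only at the start 94.3% of genes did, with a median of 32.8 TPM, and with a stable region without a Runx peak 81.6%, with a median of 18.6 TPM. The median with Runx1 was 38.7 TPM in control, 37.2 in Runx1KO and 34.9 in ZebDKO cells. In limma fits on log2(TPM+1) a gene was called at more than 2-fold and a Benjamini-Hochberg adjusted p under 0.05. Of 2226 such genes tested, 59 (2.65%) were called higher and 49 (2.20%) lower in Runx1KO cells. Over all 11245 tested genes with an annotated start the called shares were 7.91% higher and 5.26% lower. The median log2 fold change was -0.06 in both sets. Genes near 0 in 1 cell line enter the test only when they reach 1 TPM in the other, and genes under a mean of 2 TPM over both lines made up 54 of the 2226 against 830 of the 11245. In such bulk libraries fewer cells expressing a gene and less RNA per cell cannot be told apart.

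Starts with Runx2 only had shares of similar size, and no test of the difference was made. Genes with a stable region carrying Runx2 only at the start gave 130 higher (3.22%) and 95 lower (2.35%) of 4043, and those with a stable region without any Runx peak 274 (7.09%) and 150 (3.88%) of 3862, where a gene with several regions counts in each set. By contrast, of 61 tested genes with a closing Runx1-bound region at the start, 16 (26.2%) were called lower and 0 higher by limma, and 10 were higher and 40 lower at an unadjusted p under 0.05 with no limit on size. That is 82.0% of the 61, where 74.1% of all tested genes with a start and 72.2% of those with a Runx1-bound stable start had such a p.

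Expression level went with these shares, so they were also set side by side within classes of the mean TPM over the 6 libraries compared, a split chosen after the data were seen. Genes whose mean was under 2 TPM were left aside, since the filter decides which of them are tested. Of the other genes, 58 of 2172 with a Runx1-bound stable start (2.67%) were called higher and 46 (2.12%) lower, against 6.99% and 4.33% of all 10415. From 2 to 10 TPM, 12 of 303 (3.96%) were higher, against 14.7% of all tested genes, 6.33% with Runx2 only and 12.5% with no Runx peak. From 10 to 30 TPM the shares with Runx1 and over all genes were 2.83% and 6.86%, from 30 to 100 TPM 2.43% and 4.21%, and from 100 TPM 2.13% and 3.54%. For calls of lower expression they were 4.29% against 10.2% from 2 to 10 TPM, and 1.06% against 1.26% from 100 TPM. With Runx2 only the shares higher lay on either side of those with Runx1, at 2.67%, 2.09% and 2.52% in the 3 classes from 10 TPM.

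**Figure D4:**
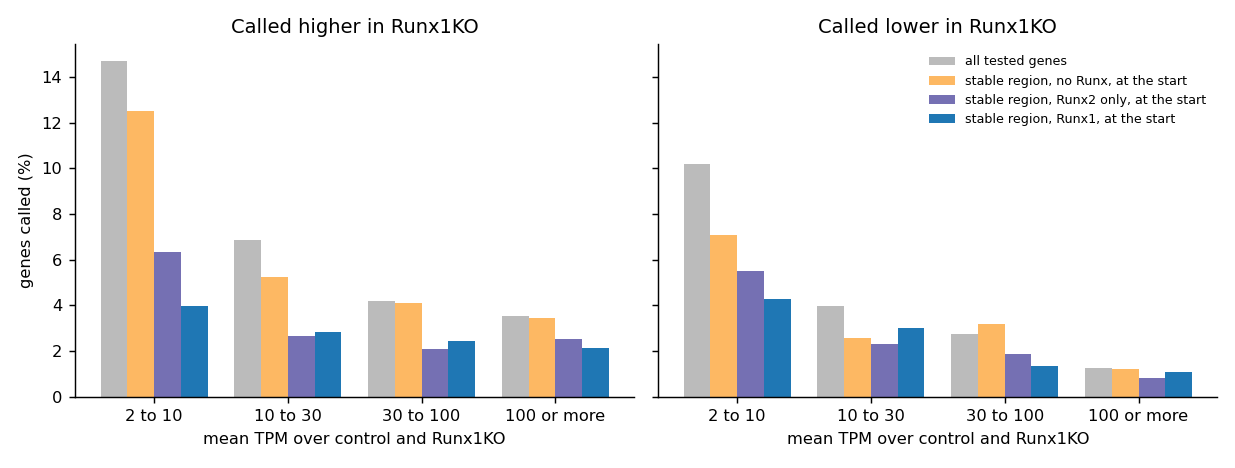
The share of tested genes (%) called higher (left) or lower (right) in Runx1KO cells, by mean TPM over the 6 control and Runx1KO libraries, for all tested genes and for genes with a stable region at the start that has no Runx peak, Runx2 only, or Runx1. From 2 to 10 TPM the called-higher bars step down from 14.7% to 12.5%, 6.33% and 3.96%, and from 100 TPM they lie between 2.13% and 3.54%.

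In ZebDKO cells, compared with the same control libraries, 85 of 2221 genes with a Runx1-bound stable start (3.83%) were called higher and 106 (4.77%) lower, where 7.49% and 7.16% of all 11181 tested genes with a start were. Genes whose Runx1 summit had the TGTGGT core were called higher in 18 of 567 (3.17%) and lower in 18 (3.17%) cases in Runx1KO cells, and those without in 41 (2.47%) and 31 (1.87%) of 1659. For the regions away from starts, the nearest tested gene within 50 kb was called higher in 74 of 898 cases (8.24%) and lower in 43 (4.79%), close to the 7.91% and 5.26% of all tested genes. Beside closing Runx1-bound regions away from starts, 23 of 473 such genes (4.86%) were higher and 66 (14.0%) lower.

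Of the 59 genes that rose, the apical polarity protein gene Crb3 stood furthest out. It had 0.5, 0.5 and 0.8 TPM in control, 56.3, 55.9 and 60.7 TPM in Runx1KO and 54.5, 52.6 and 58.3 TPM in ZebDKO libraries (log2 fold changes of 5.20 and 5.14 with adjusted p of 1.66e-08 and 1.91e-08 by limma). Its stable region, chr17:57199167-57200294, had a Runx1 fold of 5.64 and Runx2 folds of 7.05 in control and 7.67 in Runx1KO cells. Open chromatin at this start was thus on the stable list although its RNA was close to 0 in control.

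Of the other large rises, Klf2 and Slc2a1 were in genes well expressed in control cells. Klf2, a zinc finger transcription factor, had 76.1, 79.3 and 70.3 TPM in control, 365.1, 380.7 and 386.3 TPM in Runx1KO and 111.2, 101.7 and 103.9 TPM in ZebDKO libraries. Slc2a1, the glucose transporter GLUT1, had 132.9 to 137.2 TPM in control, 553.9 to 594.8 TPM in Runx1KO and 249.0 to 258.1 TPM in ZebDKO. Their log2 fold changes in Runx1KO were 2.31 (SE 0.048) and 2.08 (SE 0.032), with limma Benjamini-Hochberg adjusted p = 3.92e-08 and 1.31e-08, and the Runx1KO libraries lay apart from all others. Nupr1, a small nuclear stress-response protein, went from 192.5 ± 11.2 to 724.3 ± 43.2 TPM, and Atg9b, an autophagy protein, from 53.4 ± 2.40 to 186.6 ± 12.6 TPM. In ZebDKO cells Nupr1 had 381.0 ± 19.6 and Atg9b 92.1 ± 4.25 TPM. Phyhipl rose by 1.92 on the log2 scale in Runx1KO and by 1.28 in ZebDKO cells. Fcho1, an endocytic adaptor, was low in control, at 1.1, 0.9 and 1.1 TPM, and rose by 2.05 on the log2 scale to 7.40 ± 0.520 TPM in Runx1KO, with 4.73 ± 0.208 TPM in ZebDKO. The region at Phyhipl had a Runx2 peak in control (fold 4.40) and none in Runx1KO cells.

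AP-1 genes, whose products bind the AP-1 core counted above, had a Runx1-bound stable region at the start in 6 of 12 tested cases. The 6 were Atf3, Fos, Fosl1, Jund, Maff and Mafk. The share over all tested genes with a start was 19.8%. Other lists ranged from 9.09% (Runx and cofactors) to 39.0% (actin cytoskeleton and adhesion). Genes with such a start were mostly well expressed, and the part of expression level in this count was not tested. Fos had 400.1, 412.7 and 421.7 TPM in control and 1467, 1549 and 1485 TPM in Runx1KO libraries (log2 fold change 1.86), and Atf3 went from 438.4 ± 16.9 to 1180 ± 38.8 TPM (1.43), both called in the limma fit, with Benjamini-Hochberg adjusted p = 1.72e-08 and 1.14e-07. Fosl1, Jund, Maff and Mafk had log2 fold changes of 0.16, 0.67, 0.51 and 0.51 and did not pass 2-fold. In ZebDKO cells Atf3 (1067 ± 11.2 TPM), Fosl1, Maff and Mafk were called higher, with log2 fold changes of 1.28, 1.22, 1.98 and 1.38, whereas Fos stood at 752.0 ± 12.0 TPM (0.87) and Jund at 506.7 ± 19.8 TPM (0.06). Over all tested genes with a start 7.91% were called higher in Runx1KO and 7.49% in ZebDKO cells. The tested AP-1 genes without such a start had a median log2 fold change of 0.71 in Runx1KO, with 1 called higher. Those with it had a median of 0.59. The list is short, and no test of it was made.

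The 8 largest falls, read across genotypes, showed different patterns. Vasn (vasorin), a membrane protein that binds TGF-beta, had 36.6, 39.1 and 43.6 TPM in control, 5.0, 6.4 and 5.8 TPM in Runx1KO and 75.7, 67.8 and 70.9 TPM in ZebDKO libraries, so the ZebDKO values lay above and the Runx1KO values below control. Its region, chr16:4639707-4640978, had 3 TGTGGT cores at the summit and a Runx2 fold of 6.13 in control and 4.39 in Runx1KO. Apobec1, a cytidine deaminase that edits RNA, had 6.73 ± 0.306, 0.30 ± 0.10 and 0.90 ± 0.265 TPM in control, Runx1KO and ZebDKO, and Rtkn2 had 7.47 ± 0.321, 0.90 ± 0.10 and 1.0 ± 0.20 TPM. These were low in both knockouts.

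Others were low in Runx1KO cells and closer to control in ZebDKO cells. Serpinb9, an inhibitor of granzyme B, had 77, 77.8 and 75.1 TPM in control, 17.3, 15.8 and 18.8 TPM in Runx1KO and 64.5, 69.0 and 63.2 TPM in ZebDKO libraries. Plekho2 had 56.6 ± 0.700, 8.77 ± 0.513 and 42.3 ± 2.82 TPM in the same order. Ggt7 had 14.9 ± 1.01, 1.73 ± 0.208 and 16 ± 0.321 TPM, and Oplah, which encodes 5-oxoprolinase of glutathione metabolism, 9.87 ± 0.551, 1.5 ± 0.346 and 11.3 ± 0.208 TPM. Dlc1, a GTPase-activating protein, stood in between, at 23.1 ± 0.874, 3.10 ± 0.300 and 11.3 ± 0.702 TPM. All 8 falls lay between -2.60 and -2.09 on the log2 scale, with limma Benjamini-Hochberg adjusted p from 2.45e-08 to 3.70e-06. A Runx2 peak was present at each of these starts in Runx1KO cells, with folds of 3.64 to 8.65. Of all 2284 Runx1-bound stable starts 97.6% had a Runx2 peak in these cells, so its presence does not set the 8 apart.

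**Figure D5:**
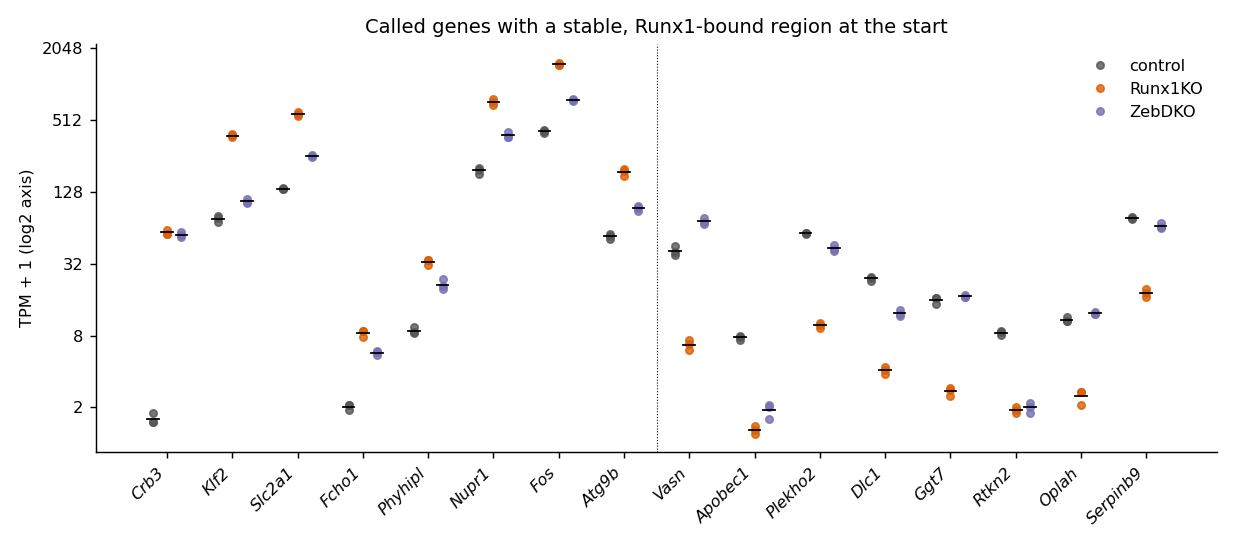
TPM + 1 (log2 axis) in each of 9 libraries for the 8 largest rises (left of the dotted line) and 8 largest falls in Runx1KO among called genes with a stable Runx1-bound region at the start; points are libraries and bars means of 3. Crb3, Apobec1 and Rtkn2 moved by similar amounts in both knockouts, and Vasn moved apart, at 5.73 TPM in Runx1KO and 71.5 TPM in ZebDKO. All 8 rises also had a mean above control in ZebDKO, where Crb3, Fcho1 and Phyhipl were called higher.

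The other gene lists are given by their counts, beside a background of 2.65% higher and 2.20% lower among genes with such a start and 7.91% and 5.26% among all tested genes with a start. The lists are short, and nothing particular to a list is read from them. Of the Runx genes and Cbfb, none had a Runx1-bound stable region at a start. Runx2 had 5.47 ± 0.551 TPM in control, 3.73 ± 0.153 in Runx1KO and 3.30 ± 0.200 in ZebDKO, Cbfb 78.2 ± 4.17, 73.0 ± 1.47 and 58.03 ± 2.098 TPM, and Runx3 0 to 0.3 TPM in every library. In the list of Runx cofactors Tle4, a Groucho family corepressor, was the only gene with such a start, with 9.43 ± 0.473 TPM in control libraries and 19.1 ± 0.173 TPM in those of Runx1KO (log2 fold change 0.95, not past 2-fold).

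Epithelial genes with such a start were 3 of 27 tested. Crb3 and the desmosomal Pkp2 (52.8 ± 3.09 to 116.8 ± 5.48 TPM) rose. Of the 24 epithelial genes without such a region, 19 were called higher. Mesenchymal genes with such a start were 3 of 21, of which Fn1, encoding fibronectin, fell from 52.6 ± 3.43 to 17.97 ± 0.351 TPM in Runx1KO and stood at 97.3 ± 7.28 TPM in ZebDKO. Cdh2 (N-cadherin) had -0.91 and Vim (vimentin) 0.00. Of the 18 other mesenchymal genes, 10 were called lower. These markers of cell type moved between the genotypes together with the genes above, and their part in those changes was not tested.

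At shares of that size 0 or 1 called gene in a list of this length is near the background. For counts at an unadjusted p under 0.05 the background was 72.2% of genes with such a start and 74.1% of all tested genes with a start. The actin cytoskeleton and adhesion list had 16 of 41 tested genes with such a start, the largest number, including Actb, Vcl, Zyx and Tln1, and 0 of the 16 were called by limma, although 13 had an unadjusted p under 0.05, with log2 fold changes from -0.67 to 0.35. Of the 25 without such a start, 2 were higher and 2 lower. By the same fit the TGF-beta and BMP list had 9 of 28 with 0 called and 7 at an unadjusted p under 0.05. The nephron progenitor list had 5 of 16 (Hoxa10, Hoxa11, Lhx1, Meis2 and Pax2) with 0 and 3, and the SWI/SNF and coactivator list, of chromatin remodellers, 6 of 24 with 0 and 4. The cell cycle list had 8 of 29, of which Cdkn2b, an inhibitor of Cdk4 and Cdk6, rose from 33.5 ± 0.862 to 72.4 ± 3.17 TPM and stood at 80.9 ± 0.586 TPM in ZebDKO. The Hippo and TEAD list had 2 of 17, Amotl2 and Lats1, with 0 called and 0 at an unadjusted p under 0.05.

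Neighbouring chromatin was compared by distance. A closing region lay within 10 kb of 19.4% (17.5 to 21.5%) of the Runx1-bound stable regions away from starts, against 16.1% (14.7 to 17.7%) with Runx2 only and 13.1% (12.7 to 13.6%) with no Runx peak. The interval overlapped that of regions with Runx2 only. An opening region lay within 10 kb of 21.7%, 21.9% and 16.9%. At starts closing neighbours were found for 8.67%, 7.63% and 8.64%, intervals that overlap.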

How the data were processed

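RNA-seq, ATAC-seq and ChIP-seq of mK4 cells were taken as deposited. According to the methods, reads passed Trim Galore, STAR (mm9) and sambamba, which dropped duplicates, and RefSeq genes were counted by featureCounts 1.6.2. The authors deposited these as TPM, scaled for gene length and library sum. The deposited table used holds 24953 genes with 1 decimal, and a deposited 6-library table was an alternative. The authors called ChIP-seq peaks with MACS2 on combined replicates and took out peaks that the Runx1 antibody also gave without Runx1. The methods give a broad-peak setting, whereas the deposited lists hold narrow-peak columns with a summit, on which all summit-based values rest. The deposited fold is enrichment over local background at the summit, and the deposited -log10 q reaches q = 0.0494, above the limit of 0.01 stated in the methods. ATAC-seq peaks present in at least 2 of 3 replicates were split by the authors into 3 lists by their change in Runx1KO, which fixes the class stable. The columns of log2 fold change and of -log10 values in those lists hold the authors' own comparison and were not used. TPM and pooled peaks keep no read numbers, so depth is unknown.

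Regions were intersected at 1 bp, placed on GENCODE vM1 gene models, and read from mm9 with pysam 0.24.0 under Python 3.11.15 (numpy 2.4.6, pandas 2.3.3, scipy 1.17.1, matplotlib 3.10.9). A region within 1000 bases of any start was counted there first, then by its middle as exon, intron or intergenic. Where several Runx1 peaks overlapped a region (192 regions) the strongest was used. Cores were searched on both strands as exact letters, which is coarser than a weight matrix; they can overlap each other. Genes reaching 1 TPM in 3 or more of the 6 libraries compared entered limma 3.58.1 (R 4.3.3) as log2(TPM+1), with a trend, two-sided, and Benjamini-Hochberg adjustment over all 13067 genes (12974 for ZebDKO). Fold changes on this scale understate those of low genes. Gene symbols matched an annotated start for 86.1% of tested genes. Per the methods the 3 libraries of a genotype came from triplicate cultures of that line, so p-values measure the spread between cultures. Whether that spread takes in any difference between clones is not stated. The fit was tested on simulated data with known changes. The members, gene lists and named genes were chosen with earlier results of these data known. Named were the Runx genes and Cbfb, the 8 largest rises and 8 largest falls among called genes with a member at the start and groups that do not overlap (no Rik, Gm or LOC names), called genes of the lists, and the nearest tested genes of the 10 regions with the highest Runx1 fold. Alternatives were other overlaps, windows, pseudocounts, filters, scalings, tables and left-out libraries. Values of some listed genes are not reported here.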

Additional observations from a re-analysis of the deposited data

How the results depend on the processing

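The number of Runx1-bound stable regions was 3820, 3809 and 3717 when 50% of the peak or its summit had to lie inside the region, or when peaks needed a q of at most 0.01, and the share with Runx2 in Runx1KO stayed at 93.1 to 93.6%. The share with the Runx core moved with its definition, to 28.4% in the narrower window, 61.3% in the whole open region and 65.03% with TGCGGT added. The share at a start was 63.5% with a wider start window and 55.8% with protein-coding transcripts only. Summits of Runx1 and Runx2 in control lay within 25 bases at 32.0% and within 100 bases at 80.5%. These moves follow from wider or narrower definitions. Called genes with a member at the start numbered 56 to 71 higher and 45 to 68 lower under the other pseudocounts, filters, scalings, tables, windows and peak limits, and 122 and 84 when each member was given its nearest tested gene within 50 kb, which takes in members away from starts. With 1 library left out they numbered 57 to 61 and 50 to 54. Their shares stayed under those of all tested genes in each of these settings. Over all genes 1033 were higher and 666 lower, and a filter of 5 TPM left 442 lower, with fewer genes tested. Over 525 refits of the named genes (those of the nearest genes of the 10 strongest regions included) 0 reversed and 524 kept direction and side of the threshold, the exception being Notch1, which was called lower without control replicate 2 (log2 fold change -1.02, limma adjusted p = 4.91e-05). With a filter of a mean of at least 2 TPM over the 6 libraries, chosen after seeing the data, 58 were higher and 46 lower. Same-numbered control and Runx1KO libraries did not deviate together, so the numbers were not taken as pairs, and with the replicate block 59 were higher and 49 lower at the members, and 1039 and 669 over all genes. Alternatives were not run for ZebDKO. Peak lists pooled over replicates limit every share here to counting error of regions, and low TPM limits genes near 0.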
